A study of Homo sapiens with 23 samples.

Results

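The comparison described here asks whether the response to loss of IRF4 differed between myeloma lines that are reported to keep p53 function and lines that are not. It used all 23 libraries of the series: 11 from H929 and MM1S, and 12 from OPM2 and RPMI-8226. All are human multiple myeloma cell lines, that is, malignant plasma cells grown in culture. H929 and MM1S are reported to keep p53 function and are called the p53-functional lines here. OPM2 and RPMI-8226, which are not reported to keep it, are called the p53-deficient lines. Both names are labels for the sides of the comparison, and these data do not establish loss of p53 function in OPM2 or RPMI-8226. Each line carried either 21B, a guide RNA against IRF4 for CRISPR cutting, or a guide named EV, and each of the 8 groups received doxycycline for 48 hours, which switches on guide expression. Groups held 3 libraries each, except MM1S with the EV guide, which held 2 (replicates 2 and 3). In a given line the response of a gene is its log2 fold change, IRF4 guide over EV guide. The value tested is the mean response of H929 and MM1S minus the mean response of OPM2 and RPMI-8226, called the response difference below and given ± its standard error (SE). A gene was called at a Benjamini-Hochberg adjusted p below 0.05 over all genes, from edgeR's quasi-likelihood test.

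p53 is a transcription factor that is held at a low level by the ubiquitin ligase MDM2 and accumulates after DNA damage and other stresses. It then switches on genes that stop the cell cycle, such as CDKN1A, genes that repair DNA, and genes that start apoptosis through the mitochondria, such as BBC3 and BAX. The arrest works through the pocket proteins (RB1 and its relatives) and E2F factors, so that genes of DNA replication and mitosis go down. Many human cancers, and many cultured myeloma lines, have lost this pathway.

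The design set limits to what the comparison can show. With 2 lines on each side, anything else that separates H929 and MM1S from OPM2 and RPMI-8226 cannot be told apart from p53 function, of which the libraries hold no direct measure. H929 and OPM2 are known for the translocation that activates NSD2 and FGFR3, and MM1S and RPMI-8226 for translocations of MAF, so each side holds 1 line of either class. There was a single IRF4 guide and a single time point, and the sources used here do not give what the EV guide targets, if anything. A response to the cutting of DNA, which can itself activate p53, and a response to the loss of IRF4 therefore cannot be told apart. Nothing in the labels ties replicates to separate cultures. The p-values therefore reflect only how far these samples spread, and that spread may be technical. The labels do not say whether the cells of a line were a clone or a pool.

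Library totals ran from 6907390 to 28486960 counts. The MM1S EV libraries, at 8662035 and 9366370, were among the shallow ones. Across genes, libraries of a group correlated with Pearson r of at least 0.988 on log2 CPM (counts scaled to a common library size). As the check of the label, MDM2 in the EV libraries stood at 1146, 1144 and 1234 CPM in H929 and at 345 and 358 in MM1S. It stood at 163, 153 and 148 in OPM2 and at 187, 142 and 117 in RPMI-8226, so the EV levels of this p53 target did not overlap between the sides. CDKN1A gave no such order: EV levels were 142 to 178 CPM in H929 but 15.1 to 17.3 in MM1S, beside 13.3 to 20.3 in OPM2 and 25.2 to 35.7 in RPMI-8226.

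IRF4 (chr6:391752-411443 on GRCh38.p14), the targeted gene, had a lower mean response in H929 and MM1S than in the other lines. With the EV guide it stood at 2182, 2219 and 2197 CPM in H929, against 579, 773 and 855 with the IRF4 guide. In MM1S it stood at 724 and 641 against 279, 287 and 228. OPM2 had 1570, 2031 and 1319 against 890, 1331 and 897, and RPMI-8226 had 482, 461 and 409 against 193, 250 and 187. The guide groups overlapped in OPM2 and were apart in the other 3 lines. The responses were -1.58, -1.36, -0.66 and -1.10 in the order H929, MM1S, OPM2 and RPMI-8226, and the response difference was -0.59 ± 0.19 (adjusted p = 0.0262 by edgeR). This call was lost without MM1S EV replicate 2, without RPMI-8226 21B replicate 2, and without H929 or OPM2, with differences down to -0.36 over all alternatives. IRF4 mRNA therefore fell further on average in the pair with reported p53 function. The responses of MM1S (-1.36) and RPMI-8226 (-1.10) were closer than those of H929 (-1.58) and OPM2 (-0.66). IRF4 protein was not measured in these libraries, and the part of the IRF4 difference in the differences below was not tested.

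Of 16468 genes tested, 1972 (12%) had a higher response in H929 and MM1S than in OPM2 and RPMI-8226, and 2116 (12.8%) a lower one. At least a 2-fold difference was reached by 342 called genes upward (2.08%) and 361 downward (2.19%). The median response difference over all genes was 0.03. Lines of the same side differed as well: the responses of 4226 genes (25.7%) differed between H929 and MM1S, and those of 2639 (16%) between OPM2 and RPMI-8226. A mean over unlike lines can be moved by 1 of them, so a stricter class was counted. A gene is named separated here when it was called in the response difference and, with the same sign, in each of the 4 differences between 1 line of either side. This held for 203 genes upward (1.23%) and 302 downward (1.83%). Those counts rest on the 2 MM1S EV libraries: without replicate 2 they were 113 and 194, and without replicate 3 the upward count was 135. Other settings raised them, to 306 upward with a replicate block shared by the lines, and downward to 484 with a block within each line and to 472 by limma on the deposited log2 RPKM.

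Of the 112 genes on 4 lists of p53 targets, 108 were tested. Of these, 32 (29.6%) were called higher in the response difference and 8 (7.41%) lower, beside 12% and 12.8% of all genes. Their median response difference was 0.27, or 0.26 over members counted in every group, beside 0.03 for all genes. Separated members numbered 8 upward (BBC3, BAX, FDXR, XPC, ZMAT3, TIGAR, EPS8L2 and PVT1) and 3 downward (E2F7, HSPA4L and PMAIP1). In H929, 61 of the 108 rose (56.5%, beside 32.9% of all genes), and in MM1S 48 rose (44.4%, beside 19.4%). In OPM2, 36 rose (33.3%, beside 23.3%), and in RPMI-8226 35 rose (32.4%, beside 19.2%). The p53-deficient lines thus also had a larger share of these genes rising than of all genes. Of the 32 called higher, 5 rose in both p53-functional lines and in neither p53-deficient line. Another 10 rose in both and in 1 of the others, and 9 rose in all 4. Of all 1972 genes called higher, 990 rose in both p53-functional lines. Of these, 371 rose in neither p53-deficient line, and 247 rose in all 4. The first pattern was thus not a larger share among the p53 targets than among all genes called higher. The share that rose in both p53-functional lines, whatever the others did, was larger among the p53 targets. So was the share that rose in all 4. Without H929 the 32 became 21.

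**Figure D1:**
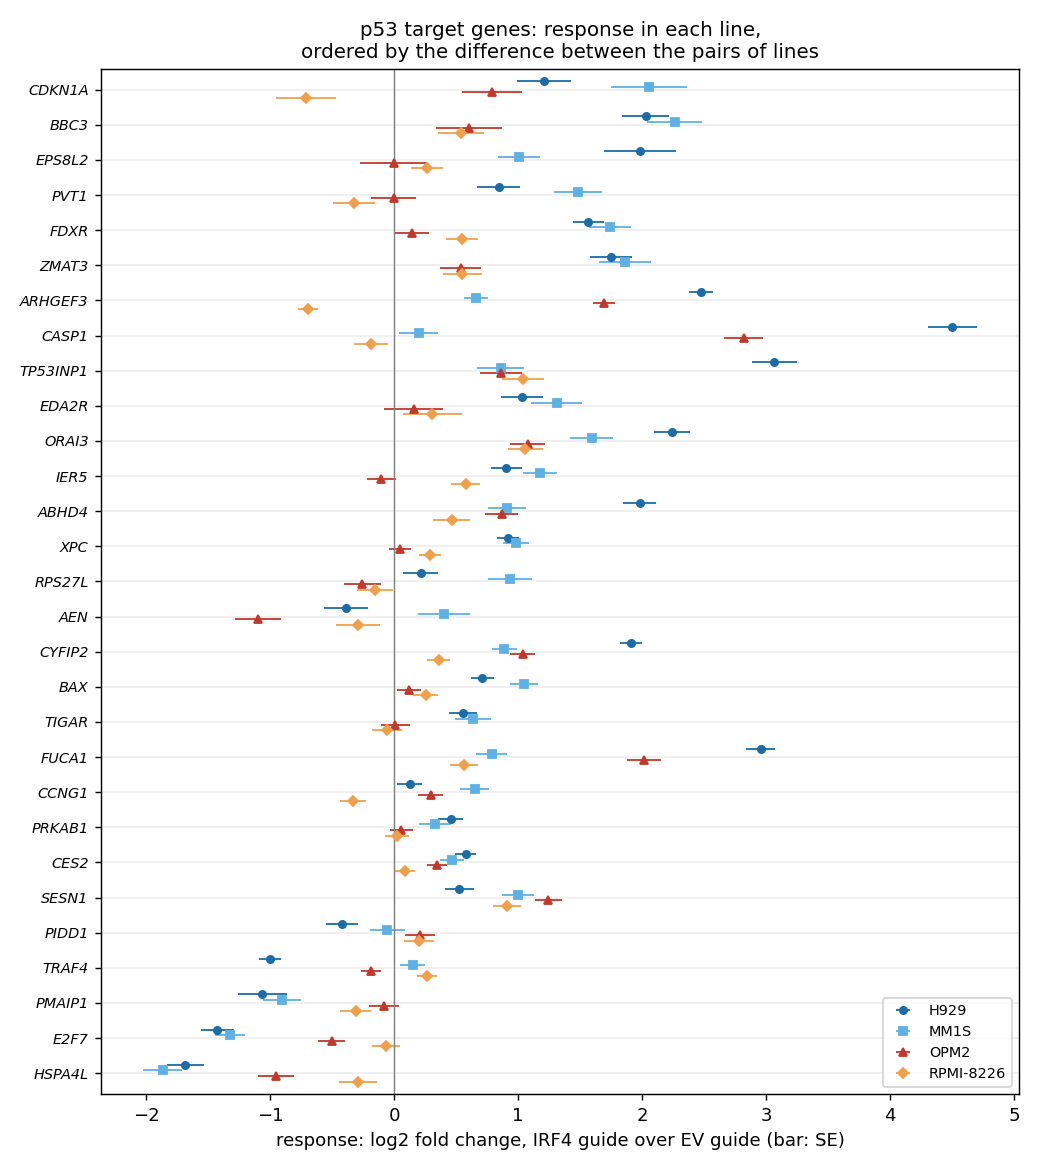
Response (log2 fold change, IRF4 guide over EV guide) of p53 targets in H929, MM1S, OPM2 and RPMI-8226. Shown are the targets named as called members of smallest adjusted p on their list. MDM2 and FAS, named only as genes of the question, are left out. Points are fitted values and bars their SE; rows run from the largest to the smallest response difference, from CDKN1A (1.59) to HSPA4L (-1.16), and the blue points of BBC3, FDXR, XPC, ZMAT3 and BAX lie apart from the red and orange ones.

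Of the cell death targets, 8 of 19 were called upward (42.1%) and 2 downward, with a median response of 1.03 in H929 and 0.82 in MM1S against 0.21 in OPM2 and 0.31 in RPMI-8226. BBC3 (chr19:47220824-47232860), which encodes PUMA, a BH3-only protein that disables the pro-survival BCL2 proteins, stood at 7.27, 7.50 and 10.1 CPM with the EV guide in H929 and at 31.0, 35.0 and 36.8 with the IRF4 guide. In MM1S it stood at 14.2 and 15.1 against 70.6, 70.5 and 68.9. OPM2 had 2.19, 2.37 and 2.03 against 3.74, 2.80 and 3.24, and RPMI-8226 had 16.3, 10.7 and 10.9 against 18.9, 24.5 and 12.1. BBC3 libraries of the guides were far apart in H929 and MM1S, close but apart in OPM2, and overlapped in RPMI-8226. BBC3 rose 4.08-fold in H929 and 4.79-fold in MM1S, against 1.52-fold in OPM2, where it was not called, and 1.45-fold in RPMI-8226. The response difference was 1.57 ± 0.22 (adjusted p = 4.48e-06), and the BBC3 response of H929 minus that of MM1S was -0.23 (adjusted p = 0.6395, not called).

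BAX (chr19:48954875-48961798), which forms pores in the outer mitochondrial membrane once BH3-only proteins free it, had 63.2, 62.1 and 60.1 CPM with EV in H929 against 108, 105 and 91.7 with the IRF4 guide. MM1S had 38.6 and 38.7 against 85.4, 82.2 and 71.1. The ranges were narrower in the other lines, with 38.3, 37.2 and 38.9 against 39.7, 43.4 and 41.3 in OPM2, and 27.0, 24.8 and 23.5 against 34.1, 31.6 and 24.7 in RPMI-8226. Both guides' libraries were apart in H929, MM1S and OPM2 and overlapped in RPMI-8226. The fold was 1.64 in H929 and 2.07 in MM1S, against 1.08 in OPM2 (not called) and 1.19 in RPMI-8226, and the response difference was 0.69 ± 0.10 (adjusted p = 4.48e-06 by edgeR). EDA2R, a receptor of the tumour necrosis factor family, had responses of 1.03 and 1.31 against 0.16 and 0.31 in the same order of lines, and was called (0.94 ± 0.22) but not separated.

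Other death genes of the list did not share that pattern. PMAIP1, which encodes the BH3-only protein NOXA, was separated in the other direction (-0.79 ± 0.15, adjusted p = 0.000234), having fallen by 1.06 in H929, by 0.90 in MM1S and by 0.31 in RPMI-8226. FAS, a death receptor, rose in H929 (1.06), MM1S (0.82) and RPMI-8226 (0.83), and its difference of 0.44 ± 0.16 (adjusted p = 0.0401) was lost without 1 library for 12 of the 23 libraries. CASP1, an inflammatory caspase, was called at 1.03 ± 0.17, yet it rose in H929 (4.50) and OPM2 (2.82) and gave 0.20 in MM1S and -0.18 in RPMI-8226. Its difference was -1.11 without H929. TP53INP1, a p53 cofactor, rose in all 4 lines, by 3.06 in H929 and by 0.86 to 1.04 in the others, and its difference of 1.01 ± 0.18 was -0.08 without H929. BMF and BCL2L11 (BIM), the BH3-only genes named in the study's title, are not on the p53 lists. They rose in all 4 lines, and the difference was called for neither, with differences of 0.22 ± 0.13 (adjusted p = 0.261) and -0.16 ± 0.08 (adjusted p = 0.155). The near-zero BMF mean joined unlike lines: BMF responses were 3.30 in H929 and 3.24 in OPM2 against 1.80 in MM1S and 1.42 in RPMI-8226. Without a line the BMF difference was called each time, at -0.52 without H929, 0.95 without MM1S, 1.135 without OPM2 and -0.69 without RPMI-8226. BCL2L11 was called when H929 21B replicate 3 was left out. The 95% intervals of the difference were -0.05 to 0.48 for BMF and -0.33 to 0.003 for BCL2L11.

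Among targets that feed back on p53 or stop the cell cycle, 3 of 16 were called higher (18.8%) and 2 lower (12.5%), shares near those of all genes. CDKN1A (chr6:36676463-36687332), whose product p21 inhibits cyclin-dependent kinases, had 142, 147 and 178 CPM with EV in H929 against 408, 330 and 341 with the IRF4 guide. MM1S had 15.1 and 17.3 against 61.9, 61.8 and 79.3. The p53-deficient lines went apart: OPM2 had 19.8, 13.3 and 20.3 against 36.1, 32.8 and 26.2, while RPMI-8226 had 35.7, 25.2 and 26.8 against 21.6, 22.2 and 10.1. CDKN1A rose 2.31-fold in H929, 4.15-fold in MM1S and 1.73-fold in OPM2 and fell in RPMI-8226 to 0.611 of the EV level. The response difference was 1.59 ± 0.25 (adjusted p = 0.000155), the largest among the p53 targets called, but H929 minus OPM2 gave 0.42 (adjusted p = 0.415, not called), so CDKN1A was not separated.

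ZMAT3 (chr3:179017223-179072513), an RNA-binding protein, was separated with 21.2, 25.6 and 25.4 CPM with EV in H929 against 72.6, 89.8 and 79.9 with the IRF4 guide. MM1S had 21.1 and 20.1 against 64.6, 71.6 and 90.8. OPM2 had 29.2, 34.8 and 37.7 against 46.7, 48.2 and 52.0, and RPMI-8226 had 51.9, 40.7 and 33.9 against 80.0, 51.1 and 56.5. It was called up in all 4 lines, 3.36-fold and 3.64-fold on one side and 1.45-fold and 1.47-fold on the other, and its libraries overlapped in RPMI-8226 alone of the 4. The difference was 1.26 ± 0.17 (adjusted p = 9.61e-06). MDM2 itself (chr12:68808172-68850686) was not called at 0.27 ± 0.12 (adjusted p = 0.106): it gave 894, 990 and 1001 CPM with the IRF4 guide in H929, below its EV libraries, and 369, 365 and 358 in MM1S, about equal to them. Its responses were -0.29, 0.05, -0.58 and -0.19, and its difference was called when no filter on low counts was used, with the replicate block within each line, without RPMI-8226 EV replicate 3 and without RPMI-8226. E2F7, a repressor of E2F target genes that is itself made at G1/S, was separated downward (-1.09 ± 0.12), with falls of 1.43 in H929, 1.32 in MM1S and 0.50 in OPM2.

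**Figure D2:**
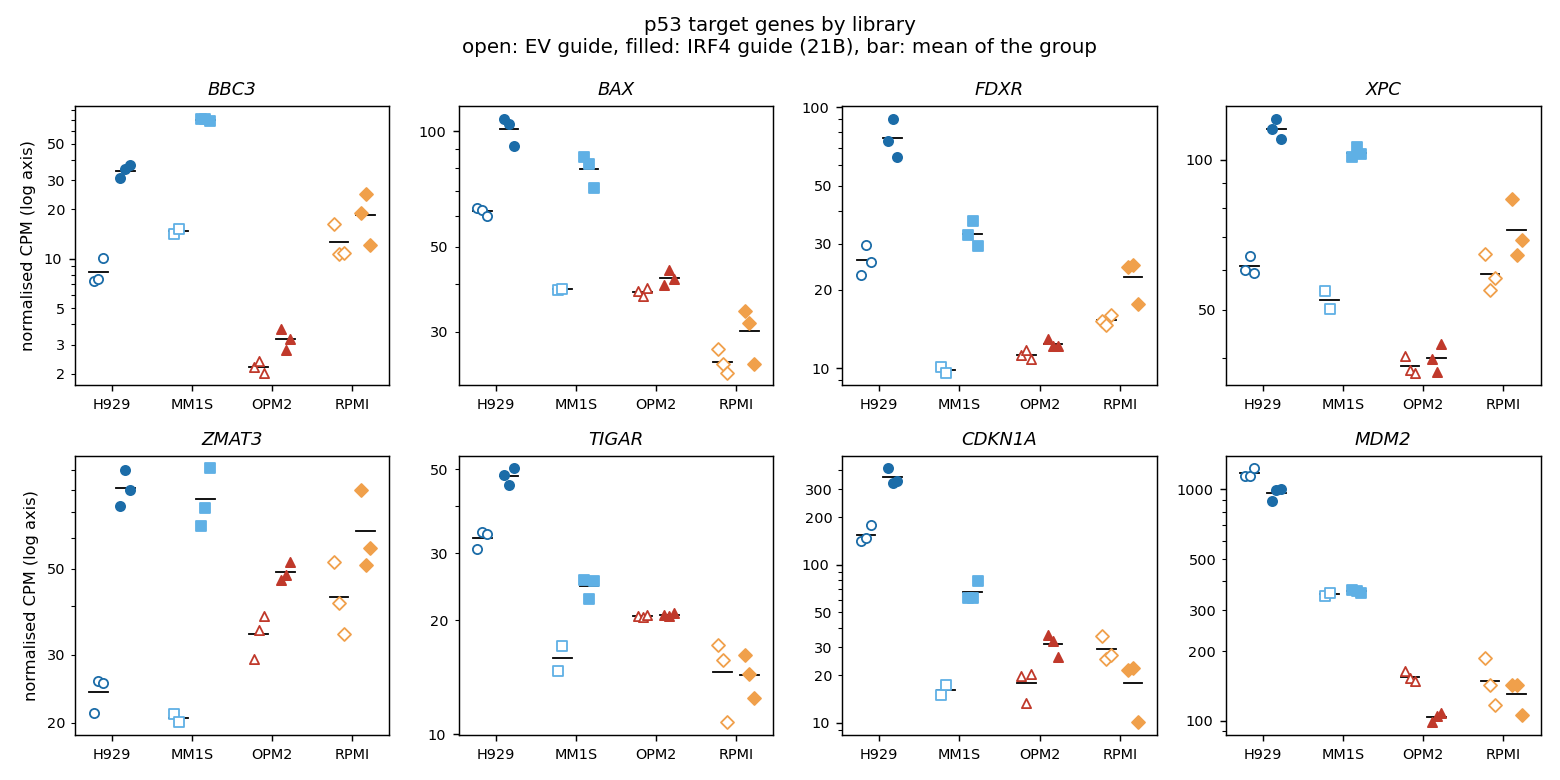
Normalised CPM of 8 p53 targets in each of the 23 libraries, on log axes that differ between panels, with open symbols for the EV guide, filled symbols for the IRF4 guide and bars for group means. BBC3, BAX, FDXR, XPC, ZMAT3 and TIGAR move up in H929 and MM1S by more than in OPM2 and RPMI (RPMI-8226), CDKN1A goes down in RPMI-8226, and MDM2 does not rise in H929.

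Targets in DNA repair and metabolism had 8 of 19 members called higher (42.1%) and 0 lower, and FDXR, XPC and TIGAR were separated. FDXR (chr17:74862497-74872994), a mitochondrial reductase that hands electrons to ferredoxins, had 22.8, 29.6 and 25.5 CPM with EV in H929 against 74.2, 90.1 and 64.6 with the IRF4 guide. MM1S had 10.1 and 9.60 against 32.3, 36.7 and 29.4. OPM2 had 11.2, 11.7 and 10.8 against 12.9, 12.2 and 12.1, and RPMI-8226 had 15.2, 14.7 and 16.01 against 24.4, 24.7 and 17.6. The guides' FDXR libraries were apart in each line, by a wide margin in H929 and MM1S. The folds were 2.96 and 3.33 against 1.11 (not called) and 1.46, with a difference of 1.30 ± 0.14 (adjusted p = 3.12e-08).

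XPC (chr3:14145147-14178601), which recognises damage for nucleotide excision repair, had 60.2, 64.1 and 59.2 CPM against 116, 121 and 110 in H929, and 54.5 and 50.1 against 101, 106 and 103 in MM1S. OPM2 had 40.5, 38.0 and 37.4 against 39.9, 37.5 and 42.6, and RPMI-8226 had 64.6, 54.7 and 57.8 against 83.4, 64.4 and 69.2. XPC close to doubled in both p53-functional lines, at 1.89-fold and 1.97-fold, and its libraries overlapped in OPM2 and RPMI-8226. The difference was 0.78 ± 0.09 (adjusted p = 1.30e-07). TIGAR (chr12:4321213-4360028), a phosphatase that slows glycolysis, had responses of 0.56 and 0.63 against 0.01 and -0.06 and a difference of 0.62 ± 0.13 (adjusted p = 0.000351). Its OPM2 libraries ran from 20.4 to 20.6 CPM with EV and from 20.5 to 20.9 with the IRF4 guide. RPS27L, a ribosomal protein paralog, was called (0.78 ± 0.15) but moved with MM1S (0.93) and not with H929 (0.21, not called). FUCA1, a lysosomal fucosidase, rose in all 4 lines, and its call turned to -0.49 without H929 and to -0.14 without RPMI-8226.

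Of 54 tested targets drawn from surveys of p53 binding and induction, 13 were called higher (24.1%) and 4 lower (7.41%). EPS8L2 (chr11:706231-727727), an actin regulator, was separated at 1.36 ± 0.23 (adjusted p = 2.82e-05). Its H929 levels were low, 0.439 to 0.625 CPM with EV against 1.80 to 2.42 with the IRF4 guide, and MM1S had 11.5 and 14.5 CPM against 25.2 to 26.8. PVT1 (chr8:127794524-128101256), a long non-coding RNA next to MYC, was separated at 1.33 ± 0.18 (adjusted p = 1.71e-06), with responses of 0.84 and 1.48 against -0.004 and -0.32. Its neighbour MYC, the growth-promoting transcription factor, rose in MM1S (0.42) and fell in H929 (-1.24), OPM2 (-0.99) and RPMI-8226 (-0.94), and the MYC difference of 0.55 ± 0.10 became -0.30 without MM1S. HSPA4L, a heat shock protein, was separated downward at -1.16 ± 0.15.

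Of 21 genes for p53 and its regulators, 4 were called higher (19%) and 4 lower, and 0 were separated. CHEK1, a checkpoint kinase made in S phase, was lower (-0.74 ± 0.09, adjusted p = 2.18e-07). ATM, the kinase that signals double-strand breaks to p53, was higher by 0.39 ± 0.10, and the histone acetyltransferases CREBBP and EP300, which act with p53 among many factors, by 0.33 ± 0.07 and 0.22 ± 0.07. The EP300 call was lost by limma on log2 RPKM, with no filter on low counts, and without H929 21B replicate 3 or MM1S EV replicate 2 (adjusted p up to 0.107).

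To see whether promoters of these genes share a p53 motif, windows from 250 bases before to 50 after each RefSeq start (GRCh38.p14) were searched on both strands. Of the tested genes, 12560 had a window. The p53 half-site consensus, matched without mismatch, was in 4 of 27 windows of the p53 targets called higher (14.8%). It was in 8 of 89 over the 4 lists (8.99%) and in 675 of all windows (5.37%). The lists of cell cycle genes, described below, were mostly called lower. They had the half-site in 3 of 26 G1/S windows (11.5%) and in 2 of 24 G2/M windows (8.33%). Among separated genes it was in 8 of 168 windows upward (4.76%) and 10 of 244 downward (4.10%), so the separated genes at large did not carry it more often than all windows. Among the named genes, EDEM1, called higher, and RB1 and RRM1, both called lower, also had a match before the start. The matches that lie before the start of FDXR, RPS27L and AEN, a nuclease of apoptosis, are given 5′ to 3′ on each gene's strand with the half-site in capitals, since these 3 targets were called higher. FDXR's window is cut at the base before its start (chr17:74872995-74873015, minus strand), that of RPS27L is at chr15:63157517-63157546 (minus strand) and that of AEN at chr15:88621296-88621325 (plus strand).
FDXR: gggcaggagcGGGCTTGCCCt
RPS27L: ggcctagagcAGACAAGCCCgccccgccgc
AEN: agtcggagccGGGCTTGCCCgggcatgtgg
FDXR and AEN hold the same 10 bases, but AEN was called with responses of -0.39 and 0.40 against -1.10 and -0.29, the fall in OPM2 being its one call in a line. A match in sequence is not evidence of binding, and p53 sites in introns or further upstream lie outside these windows.

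The cell cycle lists had the largest shares of members called in 1 direction of all the lists. All 30 tested genes of G1/S and DNA replication were called lower in the response difference (100%, beside 12.8% of all genes), with a median of -1.003, and 22 were separated (beside 1.83% of all genes). Of the 30 tested genes of G2/M and mitosis, 27 were called lower (90%), with a median of -0.61, and 10 were separated. These 32 separated cell cycle genes were part of the 302 separated downward. All 30 G1/S genes fell in H929 (beside 26.1% of all genes falling) and all 30 in MM1S (beside 15.2%), while 25 fell in OPM2 (83.3%, beside 20.2%) and 5 in RPMI-8226 (16.7%, beside 14.7%), where 3 rose.

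The fall was graded over the lines rather than split in 2. In the order H929, MM1S, OPM2 and RPMI-8226, median G1/S responses were -1.43, -1.14, -0.52 and -0.11, and the G2/M medians kept this order at -0.86, -0.49, -0.26 and 0.09. Within the p53-functional side, 15 G1/S genes fell further in H929 than in MM1S (beside 13.6% of all genes lower there, and 12% higher). Within the p53-deficient side, 14 fell further in OPM2 than in RPMI-8226 (beside 7.45% lower and 8.57% higher). IRF4 mRNA had fallen furthest in H929 and MM1S too, but further in RPMI-8226 (-1.10) than in OPM2 (-0.66), which is the reverse of the cell cycle order in those lines. Its part in the cell cycle difference was not tested.

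**Figure D3:**
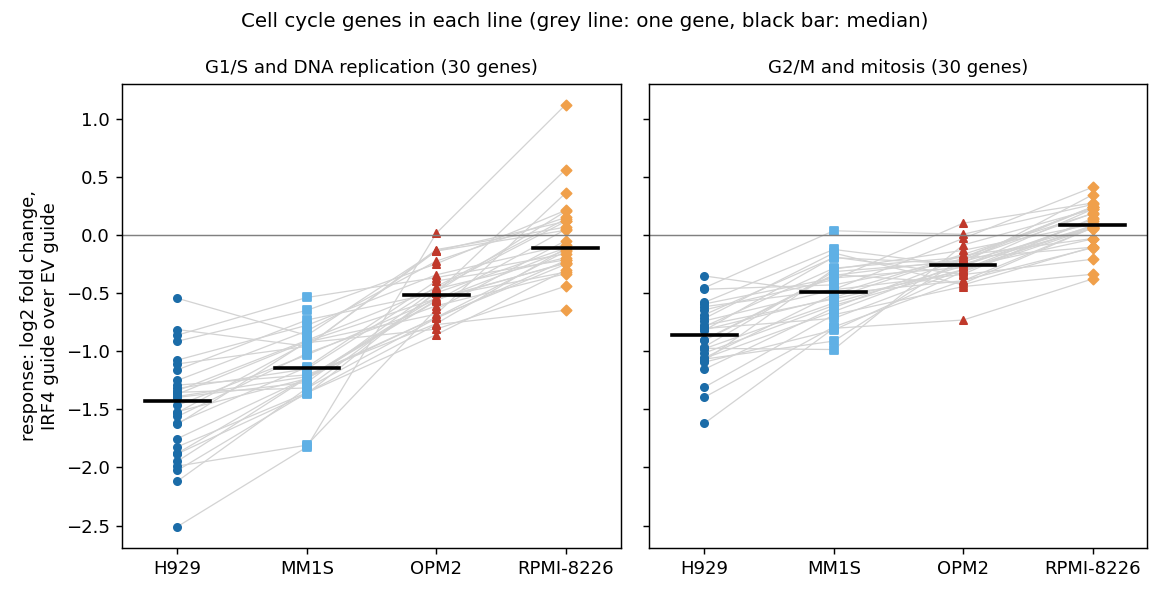
Response (log2 fold change, IRF4 guide over EV guide) of every tested member of the G1/S and DNA replication list and of the G2/M and mitosis list in each line, 30 genes each. Grey lines join the values of a gene and black bars are medians, which go from -1.43 in H929 to -0.11 in RPMI-8226 for G1/S and from -0.86 to 0.09 for G2/M.

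CCNE2 (chr8:94880224-94896693) encodes cyclin E2, a partner of CDK2 at the start of S phase, and had the largest G1/S difference. Its H929 libraries had 38.8, 37.1 and 29.0 CPM with EV against 5.29, 5.67 and 7.30 with the IRF4 guide, and its MM1S libraries 20.4 and 15.1 against 5.37, 5.87 and 3.19. In OPM2 the values were 13, 14.4 and 9.07 against 12.8, 14.7 and 8.72, and in RPMI-8226 14.7, 14.2 and 11.96 against 28.7, 28.7 and 32.8. So cyclin E2 mRNA fell 5.69-fold in H929 and 3.54-fold in MM1S, overlapped in OPM2 and rose 2.18-fold in RPMI-8226. The response difference was -2.74 ± 0.20 (adjusted p = 1.62e-10). CCNE1, its close relative, followed at -1.37 ± 0.13, with falls in H929 (-1.35), MM1S (-1.31) and OPM2 (-0.50) and a rise in RPMI-8226 (0.57).

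DTL (chr1:212035748-212105013), the substrate adaptor of a ubiquitin ligase that removes CDT1 and p21 in S phase, had 185, 168 and 163 CPM with EV in H929 against 34.9, 36.0 and 44.9 with the IRF4 guide. MM1S had 231 and 226 against 88.0, 66.8 and 67.3, and OPM2 had 240, 251 and 228 against 148, 167 and 143. RPMI-8226, with 218, 217 and 192 against 203, 221 and 229, was the one line in which the guides' libraries overlapped. The response difference was -1.59 ± 0.10 (adjusted p = 2.23e-12). E2F8 (chr11:19224063-19241655), like E2F7 a repressor of E2F targets, fell 3.46-fold in H929 and 2.72-fold in MM1S and overlapped in both other lines, with 41.7 ± 5.29 CPM against 39.2 ± 3.69 (SD, n = 3) in OPM2 and 53.9 ± 3.10 against 58.4 ± 4.84 in RPMI-8226. Its difference was -1.62 ± 0.12 (adjusted p = 7.26e-11).

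Among the other G1/S genes, RRM1 and RRM2, the subunits of ribonucleotide reductase that make deoxynucleotides, had differences of -1.08 ± 0.08 and -1.56 ± 0.16. UHRF1, which copies DNA methylation at replication forks, had -1.48 ± 0.13, and MCM10, needed to start the replicative helicase, had -1.25 ± 0.10. The smallest difference on the list was that of CDT1, a licensing factor, at -0.44 ± 0.11. Of the mitotic genes, CDK1, the kinase that drives entry into mitosis, fell by 1.09 in H929, by 0.82 in MM1S and by 0.31 in OPM2, with 0.06 in RPMI-8226 (difference -0.83 ± 0.09, adjusted p = 5.46e-08). MKI67, the proliferation marker Ki-67, had responses of -0.97 and -0.98 against -0.08 and 0.22 (difference -1.05 ± 0.13). PRC1, which bundles the spindle midzone, had -0.79 ± 0.08, and CCNA2 (cyclin A2) -0.84 ± 0.10. The 3 mitotic genes that were not called were CDC20, CENPA and UBE2C.

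The same promoter windows were searched for motifs of cell cycle genes. The E2F-type site TTTNNCGC, searched on both strands, was in 17 of 26 windows of the G1/S list (65.4%) against 1253 of all 12560 (9.98%). The CHR element TTTGAA, bound by the repressor complex DREAM, was in 16 of 24 G2/M windows (66.7%) against 1277 of all (10.2%), and the CCAAT box (CCAAT) was in 18 of those 24 (75%) against 4592 (36.6%). Genes separated downward had the E2F-type site in 59 of 244 windows (24.2%) and the CHR element in 58 (23.8%). Outside the 2 cell cycle lists the shares among the separated downward genes were 22.6% and 23%. Genes separated upward had 6.55% and 10.1%. The sites of DTL (chr1:212035730-212035747, plus strand), UHRF1 (chr19:4909379-4909406, plus strand), CDK1 (chr10:60778160-60778185, plus strand) and PRC1 (chr15:90994540-90994565, minus strand) are shown as examples of named members, with the E2F-type site of the first 2 and the CHR element of the last 2 in capitals.
DTL: gtgacgtcagTTTGGCGC
UHRF1: ccccaccctcTTTCTCGCttcccgccac
CDK1: gtataataaaTTTGAActgtgccaat
PRC1: cgtggcgcggTTTGAAattttgcggg
The site of DTL ends at the base before its start, and that of PRC1 begins 20 bases before it. These are matches of letters, and binding of E2F or DREAM was not measured.

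Of 16 D-type cyclins, kinases, inhibitors and pocket proteins, 7 were called lower (43.8%) and 1 higher, and CCND3, CDK2, CDK6 and LIN54 were separated. CCND3, cyclin D3, had 115, 112 and 117 CPM with EV in H929 against 87.4, 76.5 and 74.9 with the IRF4 guide, and 79.9 and 79.6 against 48.4, 43.4 and 42.3 in MM1S. It went the other way in OPM2, from 44.3, 49.8 and 47.9 to 77.2, 76.1 and 76.8, and gave 44.9, 47.4 and 48.8 against 48.7, 55.0 and 49.3 in RPMI-8226. The CCND3 difference was -1.09 ± 0.08 (adjusted p = 4.96e-11), a fall in both p53-functional lines beside a rise in OPM2. CDK2 had -1.04 ± 0.10. CDK6 fell in all 4 lines, by 1.07 and 1.13 against 0.30 and 0.33. RB1, the retinoblastoma protein, was called at -0.66 ± 0.08, and its fall was in MM1S (-0.82), with -0.07 in H929 (not called).

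Among separated genes with a mean of at least 1 CPM in a guide group of every line, the 12 largest differences upward began with AFAP1L2, an adaptor of SRC signalling, at 3.44 ± 0.20 (adjusted p = 2.28e-13). It went from 0.479, 0.25 and 0.233 CPM to 9.49, 9.41 and 8.95 in H929 and from 1.94 and 1.56 to 3.83, 4.45 and 3.88 in MM1S. It was a far more abundant gene in the other lines, where it fell from 70.5, 57.5 and 47.2 to 48.1, 51.5 and 46.8 in OPM2, with overlap, and from 61.2, 55.7 and 55.2 to 36.9, 32.6 and 35.5 in RPMI-8226. MAML3, a Notch coactivator, had 2.67 ± 0.34, and HHEX, a homeobox factor of early B cells, had 2.52 ± 0.31 with responses of 3.50 and 1.86 against 0.36 and -0.05. RALGPS2, an exchange factor for Ral GTPases, had 2.51 ± 0.14, but it rose in OPM2 (0.52) and fell in RPMI-8226 (-2.73). SULF2, which trims heparan sulphate, fell in OPM2 (-1.29) and RPMI-8226 (-2.99) and gave 0.004 in H929. MBP, JSRP1, RHOBTB1, TGIF1 and YPEL2 had differences of 1.74, 1.81, 2.05, 1.74 and 1.71, and MYOM2 and SNAI3 are described with the genes of opposite calls. Some of these genes started from low levels in H929. With EV there, MAML3 reached at most 0.16 CPM, HHEX 0.625, RHOBTB1 0.25 and TGIF1 0.479. The guides' TGIF1 libraries overlapped in MM1S.

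The 12 largest separated differences downward, at the same level, were those of ANXA6, CCNE2, MOXD1, GAS2L1, SH3PXD2A, C16orf54, CIITA, HEMGN, HLA-DMA, E2F8, DMC1 and DTL. CCNE2, MOXD1, CIITA, E2F8, DMC1 and DTL fell in both p53-functional lines. ANXA6, GAS2L1, SH3PXD2A, C16orf54, HEMGN and HLA-DMA rose in both p53-deficient lines, and of these GAS2L1 also fell in H929 (-0.92) and SH3PXD2A in MM1S (-0.43). Not all these rises were limited to the p53-deficient lines. C16orf54 libraries were also higher without overlap with the IRF4 guide in H929 (123 to 151 CPM, against 95.6 to 110) and in MM1S. The same held for ANXA6 in MM1S and SH3PXD2A in H929. ANXA6 in H929 and GAS2L1 in MM1S were lower without overlap. ANXA6, a calcium-dependent membrane binder, had the largest difference at -3.31 ± 0.27 (adjusted p = 7.01e-09), since it rose by 4.03 in OPM2 and by 2.77 in RPMI-8226. Its levels there were low beside the p53-functional lines, with 0.0743 to 0.474 CPM rising to 1.73 to 3.40 in OPM2, and H929 held 133 to 180 CPM over both guides. CIITA, the master activator of MHC class II genes, had 2.16, 1.88 and 2.05 CPM against 0.721, 1.09 and 0.484 in H929 and 42.4 and 33.3 against 19.4, 17.5 and 15.5 in MM1S. Its OPM2 libraries overlapped, and it rose from 4.61, 3.91 and 4.61 to 7.79, 6.81 and 8.27 in RPMI-8226. The CIITA difference was -1.77 ± 0.21 (adjusted p = 2.08e-07). HLA-DMA, a class II peptide exchange subunit, had -1.69 ± 0.24, with rises of 2.04 and 1.59 in the p53-deficient lines and 0.23 and 0.02 (not called) in the others.

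A strict contrast of direction was rare. Genes that went up in both p53-functional lines and down in both p53-deficient lines, each by its own call, numbered 8 (0.0486% of genes tested), and 4 had the opposite pattern (0.0243%). The 4 largest of the first kind were AFAP1L2, MYOM2 (2.12 ± 0.15), SNAI3 (1.69 ± 0.19) and PIK3AP1 (1.33 ± 0.14), the last a link from the B cell receptor to PI3 kinase. The 4 of the second kind were SCD5, CXCR3, DPYSL2 and UBR7. CXCR3 (chrX:71615919-71618511), a chemokine receptor found on plasma cells, had 27.6, 29.9 and 26.6 CPM with EV against 20.3, 17.3 and 14.8 with the IRF4 guide in H929 and 30.3 and 31.8 against 18.6, 16.9 and 17.6 in MM1S. In OPM2 it had 3.75, 4.74 and 2.51 against 6.51, 7.71 and 4.23, and in RPMI-8226 17.5, 18.2 and 13.4 against 24.9, 29.0 and 29.7. The guides overlapped in OPM2 alone, and the difference was -1.52 ± 0.18 (adjusted p = 1.21e-07).

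UBR7, a ubiquitin ligase of the N-recognin family, was the tightest of these genes. It had 127, 122 and 114 CPM against 89.5, 87.7 and 88.7 in H929, and 82.6 and 92.4 against 54.5, 51.6 and 53.1 in MM1S. OPM2 had 239, 240 and 237 against 302, 300 and 302, and RPMI-8226 had 86.8, 90.3 and 86.8 against 99.6, 106 and 99.8. The guides' libraries were apart in every line, and the difference was -0.86 ± 0.07 (adjusted p = 9.08e-11). SCD5, a fatty acid desaturase, had -2.002 ± 0.22, and DPYSL2, a regulator of microtubules, had -1.27 ± 0.10.

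**Figure D4:**
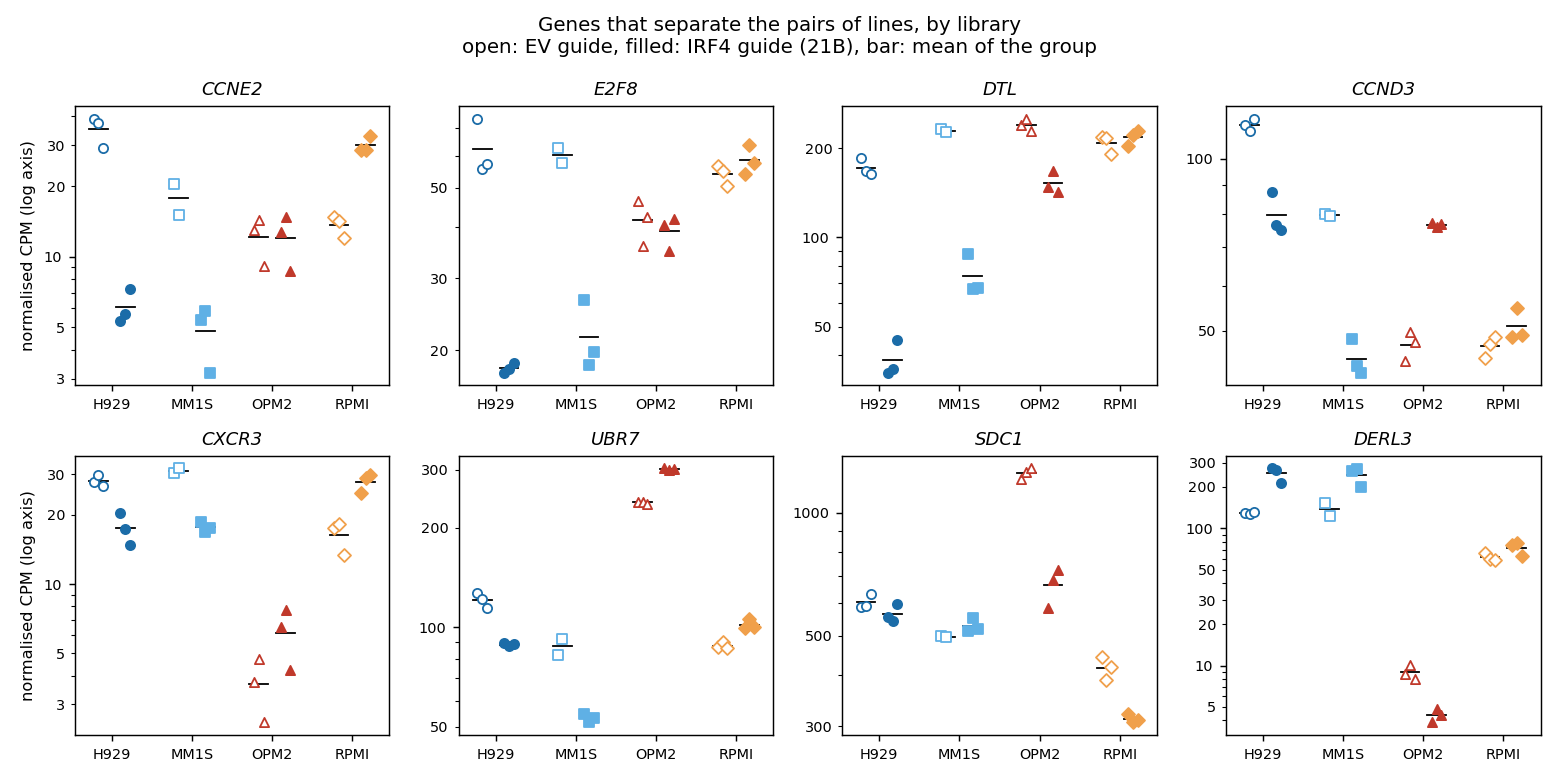
Normalised CPM in each of the 23 libraries for 8 separated genes outside the p53 lists, on log axes that differ between panels, with open symbols for the EV guide, filled symbols for the IRF4 guide and bars for group means. CCNE2, E2F8, DTL and CCND3 go down in H929 and MM1S, CXCR3 and UBR7 go down there and up in OPM2 and RPMI (RPMI-8226), SDC1 goes down in OPM2 and RPMI-8226, and DERL3 goes up in H929 and MM1S.

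Plasma cell identity genes were called higher in 7 of 19 cases (36.8%) and lower in 4 (21.1%). SDC1 (chr2:20200797-20225475), the plasma cell surface marker CD138, was separated since it fell in the p53-deficient lines. It had 1207, 1255 and 1282 CPM with EV against 585, 682 and 726 with the IRF4 guide in OPM2, and 443, 390 and 419 against 321, 307 and 310 in RPMI-8226. H929 had 589, 589 and 632 against 556, 542 and 598, and MM1S had 498 and 496 against 512, 553 and 519, neither of them called. The difference was 0.66 ± 0.07 (adjusted p = 7.45e-08). DERL3, which helps remove misfolded proteins from the endoplasmic reticulum, rose in both p53-functional lines (0.96 and 0.84) but fell in OPM2 (-1.01), with a difference of 1.29 ± 0.13 (adjusted p = 1.12e-08). TXNDC5, a disulphide isomerase, had 1.16 ± 0.11, with falls of 1.09 and 1.10 in OPM2 and RPMI-8226. SLAMF7 was lower at -1.14 ± 0.19 and had fallen in H929, MM1S and OPM2 but risen in RPMI-8226 (1.14).

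The unfolded protein response, which is kept high in cells that secrete antibody, had 7 of 22 members called higher (31.8%) and 2 lower, with a median difference of 0.22. ERN1, the sensor IRE1, rose in H929 (0.66) and MM1S (1.13) and gave -0.004 in OPM2 (difference 0.75 ± 0.14), and EDEM1 and HYOU1 had 0.39 ± 0.10 and 0.38 ± 0.09, both not called by limma on log2 RPKM. OPM2 stood apart on this list: its median response was -0.53, beside -0.23, -0.07 and -0.14 in H929, MM1S and RPMI-8226. SEL1L was lower at -0.49 ± 0.08, a value that became 0.01 without RPMI-8226.

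Death genes outside the p53 target lists were mixed. Of 12 BCL2 family genes, 5 were called higher (41.7%) and 0 lower, and 0 were separated. BCL2L1, which encodes the pro-survival BCL-XL, had risen in both p53-functional lines (0.28 and 0.70) but fell in RPMI-8226 (-0.21), with a difference of 0.56 ± 0.08 (adjusted p = 4.78e-06). MCL1, on which myeloma cells depend, had 0.43 ± 0.11 (not called by limma on log2 RPKM), and BCL2 had 0.46 ± 0.10, which became -0.002 without H929. HRK, a BH3-only gene, was called, but its MM1S EV libraries held 0 counts and its value turned to -0.09 without MM1S, so no fold is given. Among 18 caspase and death receptor genes, 4 were higher (22.2%) and 5 lower (27.8%), with CFLAR, an inhibitor of caspase-8, at 0.70 ± 0.11.

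Immune lists gave no common direction. NF-kB targets had 0 of 18 members called higher and 5 lower (27.8%), with a median of -0.13, or -0.05 over members counted in every group. CCL3, a chemokine, was separated at -3.21 ± 0.59 (adjusted p = 0.000215): it had 218 to 282 CPM with EV against 57.9 to 79.8 with the IRF4 guide in H929 and 139 to 169 against 24.8 to 34.5 in MM1S, and did not exceed 1.59 CPM in the other lines. NFKB2 (-0.78 ± 0.14) and RELB (-0.64 ± 0.12), subunits of the alternative NF-kB pathway, had higher mean responses in the p53-deficient lines. So did BIRC3 (-1.38 ± 0.32), an inhibitor of apoptosis. NFKB2, RELB and BIRC3 were not separated. The calls of RELB and BIRC3 were lost without MM1S, the line with the smallest response of both genes (0.37 and 0.08). The BIRC3 response of H929 was 1.77, beside 2.33 for OPM2 and 2.28 for RPMI-8226. Of 28 interferon-stimulated genes 4 were higher (14.3%) and 3 lower (10.7%), shares near the background. Their median responses paired lines across the sides, at 1.62 in H929 and 1.69 in OPM2 against 0.77 in MM1S and 0.76 in RPMI-8226. MX1 was higher (1.21 ± 0.21) and OAS2 lower (-1.19 ± 0.14).

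MHC class I presentation had 5 of 15 members higher (33.3%) and 4 lower (26.7%). NLRC5, the class I activator, had 0.72 ± 0.13. ERAP2 and the immunoproteasome gene PSMB9 were lower (-0.64 ± 0.09 and -0.66 ± 0.11). The NLRC5 call was lost without H929, and those of ERAP2 and PSMB9 were lost without OPM2. Of 15 B cell genes, 1 was higher (IRF8) and 3 lower (CIITA, SPIB and CD79B). The CD79B call was lost under limma-voom, by limma on log2 RPKM, and without MM1S EV replicate 3, RPMI-8226 21B replicate 1 or 3, or RPMI-8226 EV replicate 2 or 3 (adjusted p up to 0.119). IRF8, a close relative of IRF4, rose in H929 (3.61) and OPM2 (0.91) and fell in RPMI-8226 (-0.54), and its 1.69 ± 0.33 became -0.04 without H929.

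Metabolic and housekeeping lists had smaller shares called in 1 direction than the cell cycle lists. Of all genes, 12% were called higher and 12.8% lower. MYC targets and nucleolar genes had 2 of 30 called higher (6.67%) and 3 lower (10%), although all 30 fell in H929, 29 in OPM2 and 28 in RPMI-8226, against 13 in MM1S, the line in which MYC rose. The proteasome had 0 of 31 higher and 10 lower (32.3%), with small differences such as -0.47 ± 0.08 for PSMD1. Sterol and fatty acid synthesis had 8 of 28 higher (28.6%) and 2 lower, with LSS (0.86 ± 0.11) and FADS1 (-1.05 ± 0.11) separated. On this list H929 stood apart, with a median response of -0.29 beside -0.62, -0.66 and -0.63 in MM1S, OPM2 and RPMI-8226. Within the p53-functional side, 8 of its genes had a higher response in H929 than in MM1S and 0 a lower one (beside 12% and 13.6% of all genes). Lysosome and autophagy genes had 7 of 26 higher (26.9%) and 4 lower (15.4%). ULK1, the kinase that starts autophagy, was separated at 1.16 ± 0.13 with rises in all 4 lines (1.83, 1.63, 0.53 and 0.60), while CTSA (0.92 ± 0.09) and LAMP1 (0.52 ± 0.06) were carried by H929. The ATF4 response had 2 of 21 higher (9.52%) and 1 lower, with the amino acid carrier SLC7A5 at 0.84 ± 0.13, and glycolysis had 1 of 20 higher and 4 lower (20%).

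**Figure D5:**
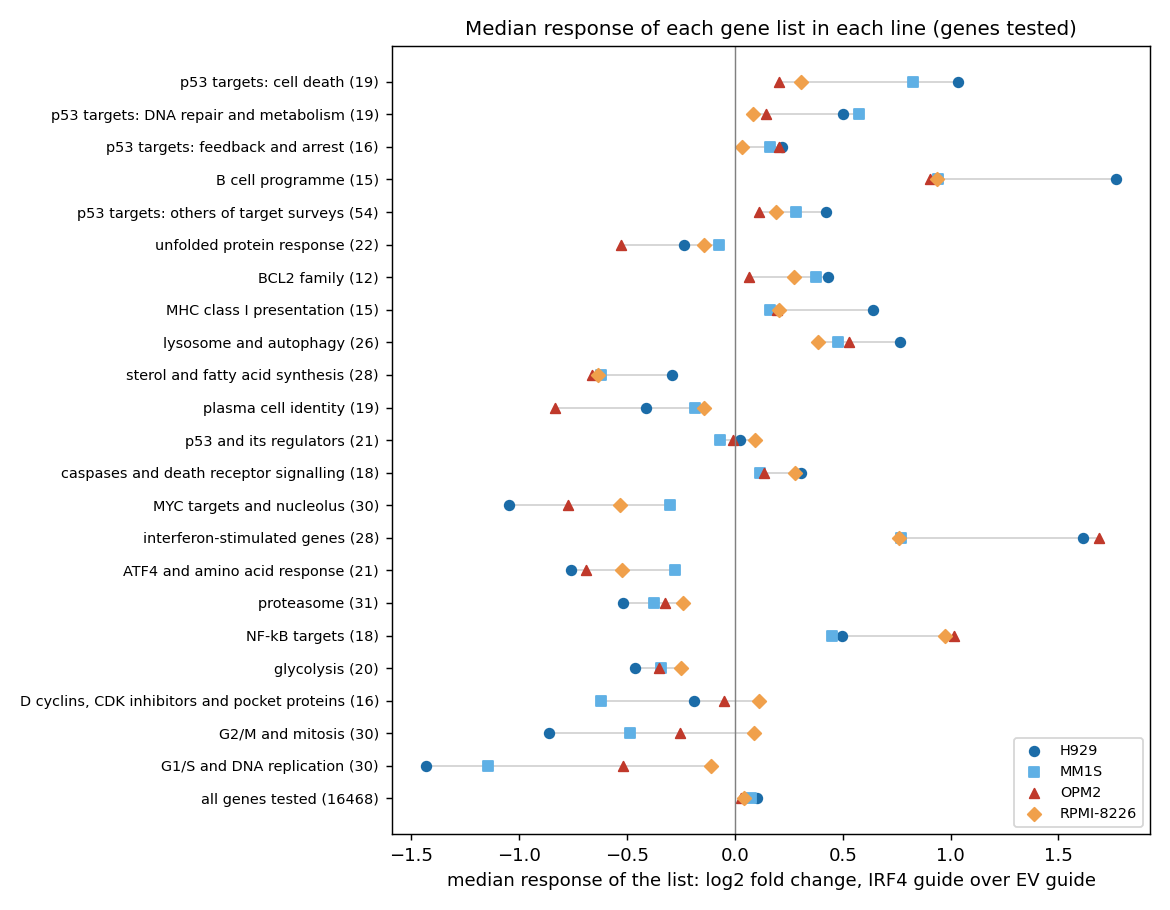
Median response (log2 fold change, IRF4 guide over EV guide) of each gene list in H929, MM1S, OPM2 and RPMI-8226, with the number of genes tested in brackets and all genes tested in the last row. The G1/S list runs from -1.43 in H929 to -0.11 in RPMI-8226, the p53 cell death targets stand at 1.03 and 0.82 against 0.21 and 0.31, and the interferon-stimulated genes pair H929 with OPM2.

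Markers of cells that a myeloma culture should lack (T and NK cells, myeloid, stromal, epithelial, endothelial and red cells) were followed as a check. Of 27 such markers, 9 to 16 were at 0 counts in all libraries of a group. Their summed level ran from 15.4 to 16.4 CPM with the EV guide and from 15.8 to 18.4 with the IRF4 guide in MM1S, and from 320 to 403 against 296 to 338 in H929. It ran from 110 to 128 against 69.7 to 100 in OPM2 and from 627 to 699 against 731 to 807 in RPMI-8226, so the guides overlapped in H929 and MM1S, and the sum was lower with the IRF4 guide in OPM2 and higher in RPMI-8226. The highest group means were 360 CPM for CD8B, 209 for NCAM1, 120 for PECAM1, 116 for EPCAM, 112 for KRT18 and 107 for CD3E. At most 1.58 CPM was reached by CD14, 2.80 by CSF1R and 2.65 by COL1A1, and ELANE, COL1A2 and PF4 had 0 counts in every group.

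Some T cell markers moved with the guide. CD3E, a chain of the T cell receptor complex, was called up in all 4 lines, with responses of 2.90, 1.27, 4.25 and 2.97 in the order H929, MM1S, OPM2 and RPMI-8226. Its H929 libraries went from 14.1, 13.1 and 15.1 CPM to 99.8, 119 and 101, its MM1S libraries from 4.18 and 3.57 to 9.41, 8.09 and 10.8, and it stayed at or below 2.74 CPM in the other lines. CD3G was called up in H929, OPM2 and RPMI-8226 from very low levels, reaching a group mean of at most 0.646 CPM. In the response difference, 0 of the 16 markers tested were called higher and 3 lower (18.8%): CD3E (-1.52 ± 0.46), PECAM1 (-1.40 ± 0.30) and NCAM1 (-0.71 ± 0.23), the last a protein that myeloma cells themselves often carry. The CD3E call was lost by limma on log2 RPKM and without RPMI-8226 EV replicate 1. The NCAM1 call was lost under limma-voom and without MM1S 21B replicate 1 or MM1S EV replicate 2 or 3. The part of these markers in the results above was not tested.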

How the data were processed

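RNA-seq of 23 libraries was used. Reads were counted per gene on GRCh38 with Subread and featureCounts, and limma was also used, per the submitters' processing notes; the strand setting, filters and tool versions are not given in the sources used here. What the authors deposited were raw counts and a table of log2 RPKM values. The main test used the counts. Genes were kept by edgeR's filterByExpr over the 8 groups, which left 16468 of 28395 genes. Counts were scaled by TMM (factors 0.914 to 1.08) and fitted with edgeR 4.0.16 (R 4.3.3), with its robust quasi-likelihood fit and 1 mean for each of the 8 groups. Contrasts gave each line's response, the response difference and the differences between single lines, with Benjamini-Hochberg adjustment over all genes. CPM values are scaled the same way.

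Alternatives were DESeq2 1.42.0, its size factors, limma 3.58.1 (voom, and on the deposited log2 RPKM), no filter or a stricter one, a replicate block, and leaving out each library or line. The comparison and the gene lists were chosen with earlier results of these data known. Named genes were those of the question, the largest separated and non-separated differences at a mean of at least 1 CPM in every line, the largest with opposite calls, and per list the called members of smallest adjusted p (4, or 8 for p53 targets); further members named in the text were chosen after their values were seen. Total counts limit the precision: the shallowest library had 6907390. Some genes are not reported here.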

Additional observations from a re-analysis of the deposited data

Results flagged for a closer look

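The responses of 4088 genes differed between the sides by edgeR's test of the difference itself. Among the 142 genes named by rule and reported here, 5 had called responses of opposite direction in H929 and MM1S together with a called difference between them. As H929 minus MM1S on the log2 scale, these were FDFT1 (1.025), MYC (-1.655), NOB1 (-0.8276), PTPN13 (-1.756) and SH3PXD2A (1.237). In the same way 13 genes were split between OPM2 and RPMI-8226. As OPM2 minus RPMI-8226, the p53 targets among them were ARHGEF3 (2.387), CCNG1 (0.627) and CDKN1A (1.5). The others were CASP2 (-0.54), CTSB (1.173), FAT4 (4.432), HUNK (-3.544), IFIT5 (2.449), IRF8 (1.449), NCAM1 (-0.831), PECAM1 (-2.933), RALGPS2 (3.257) and SLAMF7 (-2.219).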

How the results depend on the processing

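The count of 4088 called genes ran from 3377 to 4196 when 1 library was left out and from 4017 to 4903 under other methods. G1/S genes called lower stayed at 29 to 30, G2/M genes at 25 to 27, and p53 targets called higher at 29 to 35 without 1 library, but 21 without H929. Separated genes ran from 307 to 554 without 1 library (113 to 225 higher, 194 to 345 lower). The lowest were without MM1S EV replicate 2, where the remaining EV sample is assumed to vary like the other groups. Limma on the deposited log2 RPKM gave 472 lower. Without H929, MM1S, OPM2 or RPMI-8226 separated genes numbered 1521, 2615, 1790 and 1088 (815, 1128, 833 and 467 higher; 706, 1487, 957 and 621 lower), since fewer line differences must then be called. Samples of 1 replicate number correlated at 0.0256 to 0.183, over 0.1 in 6 of 11 pairs, and samples of different number at -0.103 to 0.0403. Each sample with a mate correlated best with its own number, a hint from the data, except MM1S EV replicate 2 (0.0256, against 0.0403 with 21B replicate 1), and OPM2 alone had every pair over 0.1 (0.144 to 0.183). These correlations used log2 CPM minus the group mean. With 2 EV libraries in MM1S, those values are mirror images (0.0256 and -0.0256), so MM1S could not test pairing as the other lines could. Pairs in H929 (0.0756) and RPMI-8226 (0.0992 and 0.0923) also stayed below 0.1. As not every pair passed 0.1, the numbers were not taken as pairing in the main test. With a replicate block shared by the lines 4861 genes were called and 734 separated (306 higher), and with a replicate block within each line 4896 and 785 (484 lower). Differences that changed sign were, without H929, BCL2 (-0.001939), CASP1 (-1.112), DDX21 (0.1176), FUCA1 (-0.4932), IFIT5 (-0.7484), IRF8 (-0.0365), SLC7A1 (0.2728), TP53INP1 (-0.08324) and TRAF4 (0.1187). Without MM1S they were GDPD5 (-0.2062), HRK (-0.09399), MYC (-0.2968) and NOB1 (-0.02924). Without OPM2 it was IFIH1 (0.3421). Without RPMI-8226 they were ARHGEF3 (-0.1219), CASP1 (-0.4677), FUCA1 (-0.1388), IFIT5 (-0.148), PECAM1 (0.065) and SEL1L (0.01338). The cause was not tested.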
